A study of Mus musculus with 20 samples.

Results

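The genes described here are the collagens, the laminins and 5 further matrix genes of mouse embryonic stem cells taken through combinations of signalling treatments. The members were every symbol of the form Col, a number, a, a number, or Lama, Lamb or Lamc with a digit, in the 3 single-cell gene tables, together with Fn1, Nid1, Nid2, Sparc and Hspg2. This rule uses names and no measured value, and it gave 60 of the 27998 genes in each table. Of the 60 members, 59 had at least 1 count in the germ layer experiment, 58 in the mesendoderm experiment and 59 in the mixed experiment, and Col10a1 had none in any of them.

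Collagens and laminins are secreted proteins that build the matrix around cells. Type IV collagen, made of Col4a1 and Col4a2 chains in most tissues, and laminin trimers, each of an alpha, a beta and a gamma chain, form separate networks of the basement membrane, and nidogens (Nid1, Nid2) and perlecan (Hspg2) join them. Laminin-111, the trimer of Lama1, Lamb1 and Lamc1, is the first laminin of the mouse embryo, and extraembryonic endoderm, above all parietal endoderm with its thick Reichert's membrane, makes it together with type IV collagen and Sparc. Fibronectin (Fn1) is the matrix on which mesoderm cells migrate at gastrulation, and fibrillar collagens such as Col1a1 and Col2a1 build the connective tissue and cartilage of later stages.

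The cells were male mouse embryonic stem cells of the 129P2/OlaHsd strain, each well marked by transfected short RNAs that are read out with the cell's own RNA. In the germ layer experiment, 32 populations received for 24 h every combination of 5 pathways, each either plus or minus. RA plus was retinoic acid and RA minus the receptor antagonist CD 2665. Wnt plus was GSK3iXV, a GSK3 inhibitor, and Wnt minus IWR1. Tgfb plus was ActivinA and minus A8301, Bmp plus was Bmp4 and minus Dorsomorphin, and Fgf plus was Fgf2 and minus the MEK inhibitor UO126. Minus is therefore an inhibitor, and no germ layer population was left untreated. In the mesendoderm experiment, all cells were first directed to mesendoderm for 24 h with Fgf2, Activin A, Dorsomorphin, CD 2665 and the GSK3 inhibitor XV, and each well then received for 24 h a combination of the same pathways plus Notch and Shh. The mixed experiment gave the 5-pathway combinations for 24 h to cells from an undirected start and to cells from the mesendoderm start, with 8 control wells of each start that received no combination. For the mesendoderm and mixed experiments the agents behind plus and minus are not given in the sources used here.

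Each experiment was 1 droplet library, in which a count is a unique molecular identifier (UMI), that is 1 captured RNA molecule. The authors' quality flag passed 4350 of 8421 germ layer cells, 2899 of 12781 mesendoderm cells and 4869 of 5944 mixed cells, with medians of 15314, 11700 and 19105 UMIs per cell. Counts were summed over the passing cells of each population, with at least 5 cells required. This left 32 germ layer populations of 70 to 230 cells, 300 mesendoderm wells of 5 to 29 cells and 142 mixed wells of 5 to 97 cells. Since the populations of an experiment share 1 library, the p-values measure the spread between populations, and a level in a summed population cannot tell more cells of a kind from more RNA per cell. Cell barcodes that occurred in 2 libraries numbered 151 between germ layer and mesendoderm, 64 between germ layer and mixed, and 111 between mesendoderm and mixed. No doublet caller was run. Levels below are in CPM, that is UMIs per 1000000 UMIs of the population after scaling, a scale that does not correct for transcript length.

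The levels of Col4a1, Col4a2, Lama1, Lamb1 and Lamc1 moved together, with a median pairwise r of 0.89 over the germ layer populations. Col4a1 and Col4a2 lie head to head on chromosome 8 and are transcribed away from each other, Col4a1 at chr8:11198423-11312826 on the minus strand and Col4a2 at chr8:11312805-11449287 on the plus strand (GENCODE annotation of GRCm38). Their annotated ends overlap by 22 bases, so a promoter window of either gene contains the start of the other. The RefSeq promoter windows (build GRCm38.p6, 250 bases before to 50 after the start, each written 5′ to 3′ on the gene's own strand) are shown for this pair because 1 stretch of DNA carries both starts, and for Lamb1, of the laminin trimer, for comparison. The windows are chr8:11312777-11313076 for Col4a1, chr8:11312555-11312854 for Col4a2 and chr12:31265043-31265342 on the plus strand for Lamb1. Capitals mark CCAAT and GGGCGG on either strand (ATTGG and CCGCCC on the strand shown).
Col4a1: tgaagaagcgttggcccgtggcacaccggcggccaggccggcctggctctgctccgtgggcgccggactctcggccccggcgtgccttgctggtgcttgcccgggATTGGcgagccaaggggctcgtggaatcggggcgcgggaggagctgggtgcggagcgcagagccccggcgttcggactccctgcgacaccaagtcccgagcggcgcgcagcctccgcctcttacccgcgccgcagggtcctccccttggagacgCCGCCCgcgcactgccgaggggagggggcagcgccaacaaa
Col4a2: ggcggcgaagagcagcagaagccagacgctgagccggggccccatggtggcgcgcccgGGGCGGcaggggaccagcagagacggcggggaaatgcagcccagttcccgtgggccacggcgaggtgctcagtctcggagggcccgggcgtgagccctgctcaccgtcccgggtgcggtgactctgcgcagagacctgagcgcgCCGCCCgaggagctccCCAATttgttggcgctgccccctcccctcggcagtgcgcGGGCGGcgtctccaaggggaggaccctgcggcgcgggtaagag
Lamb1: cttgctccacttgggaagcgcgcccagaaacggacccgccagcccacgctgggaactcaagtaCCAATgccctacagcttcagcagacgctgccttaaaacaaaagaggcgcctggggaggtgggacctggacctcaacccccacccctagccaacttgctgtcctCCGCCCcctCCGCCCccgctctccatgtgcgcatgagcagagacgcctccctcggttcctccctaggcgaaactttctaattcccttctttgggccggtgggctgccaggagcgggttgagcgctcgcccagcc
The Col4a1 and Col4a2 windows share 78 bases, chr8:11312777-11312854, printed in opposite orientations. Col4a1 held 1 CCAAT and 1 GGGCGG match, Col4a2 1 and 3, and Lamb1 1 and 2. Among 32851 promoter windows of the same length, 37.41% held CCAAT, 35.66% held GGGCGG and 12.81% held both. Among 47 windows of 43 member genes the shares were 31.91%, 59.57% and 27.66%. GATA on either strand was in 57.91% of all windows and 40.43% of member windows, and in none of the printed ones. These are matches of letters, not measured binding sites.

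Sparc, a calcium-binding matrix protein, had the highest level of all members in the germ layer experiment, from 206 to 1096 CPM over the 32 populations with a median of 369. Col18a1, the basement membrane collagen that gives rise to endostatin, ranged from 48.3 to 140 (median 107). Col4a1 had a nearly equal median of 104 and a wider range, 29.2 to 377. Hspg2 ranged from 26.2 to 98.8 (median 63.6), Lamb1 from 30.3 to 173 (61.2), Col4a2 from 17.3 to 190 (57.0), Fn1 from 33.7 to 301 (54.2) and Lamc1 from 26.0 to 162 (49.1). From Hspg2 to Lamc1 the medians differ by less than each member's range over populations, which is a range over treatments. Their order was not tested. Lama5 (18.6 to 44.3, median 31.6), Lama1 (4.62 to 119, median 29.1), Nid2 (6.64 to 41.4, median 22.1) and Col2a1 (1.03 to 36.2, median 8.34) followed. Lama1 covered a wide range for its level, as did Fn1 and Col2a1. Lama5, the alpha chain that later replaces Lama1 in most basement membranes, covered a narrow one.

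The remaining members were scarce. Of the 60, 23 passed the edgeR filter on low counts in the germ layer experiment, 7 in the mesendoderm experiment and 17 in the mixed experiment. The 37 untested germ layer members held 2.11% of the members' UMIs, and the most frequent of them, Col4a6, had 192 UMIs against 233 for Col26a1, the least frequent member tested. In the mesendoderm wells, which hold few cells, the 53 untested members held 24.5%, among them Col18a1 with 1675 UMIs. In the mixed wells the 43 untested members held 5.42%, led by Col1a2 with 398 UMIs. All fibril-associated and membrane-spanning collagens were among the untested, as were Col3a1, the type VI chains Col6a1 to Col6a6, and Col4a3 and Col4a4. Counts of members below therefore describe the abundant members only.

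Within the germ layer populations a small set of cells carried most of the type IV collagen and laminin-111 RNA. Cells were sorted by how many of 12 endoderm marker genes had a UMI (Gata4, Gata6, Sox7, Sox17, Dab2, Pdgfra, Thbd, Plat, Srgn, Pth1r, Krt19 and Fst), a list for primitive and parietal endoderm that contains no member. The median sum of Col4a1, Col4a2, Lama1, Lamb1 and Lamc1 was 0.689 UMIs per 10000 UMIs in cells with none of the markers, 0.915 in cells with 4, 2.97 in cells with 5 and 30.7 in cells with 6. It reached 68.8 in the 5 cells with all 12. The step lay between 5 and 6 markers in the mixed experiment too, from 1.69 to 29.0, and between 4 and 5 in the mesendoderm experiment, from 1.501 to 26.3. Cells with at least 6 markers are called endoderm-marker cells below. This limit was chosen after the values were seen, the name states the genes used and no cell type, and 26 germ layer cells lay 1 marker below it and 25 at it. In the mesendoderm experiment the 31 cells with 5 markers, 80.6% of them with a Lama1 UMI, lay below the limit. They count as other cells there, and the mesendoderm sums without endoderm-marker cells still hold them.

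**Figure D1:**
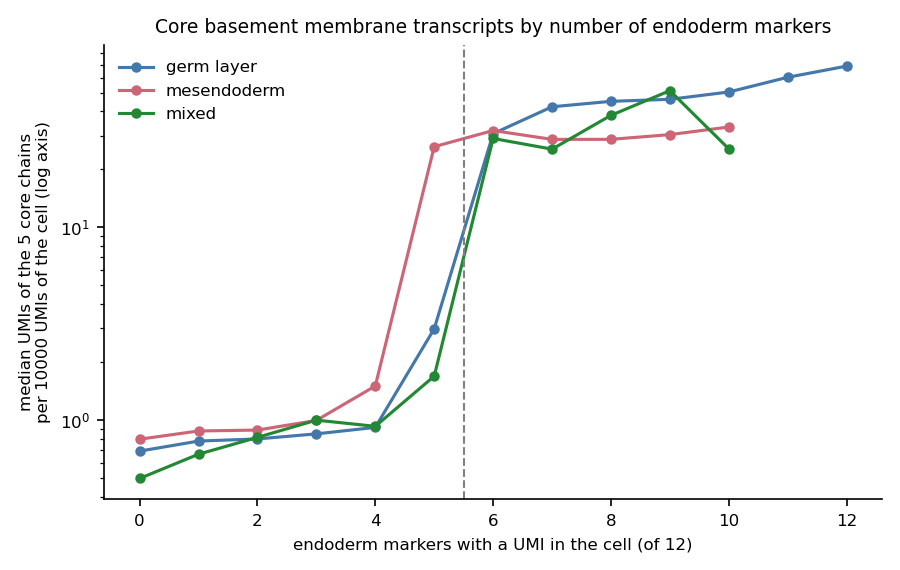
Median UMIs of Col4a1, Col4a2, Lama1, Lamb1 and Lamc1 together per 10000 UMIs of the cell (vertical log axis) by the number of the 12 endoderm markers with a UMI (horizontal axis), 1 line per experiment, for groups of at least 5 cells. The dashed line lies between 5 and 6 markers, where the germ layer median goes from 2.97 to 30.7 and the mixed median from 1.69 to 29.0.

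Endoderm-marker cells were 232 of 4350 germ layer cells (5.33%, 95% Wilson interval 4.70 to 6.04), 165 of 2899 mesendoderm cells (5.69%, 4.91 to 6.60) and 96 of 4869 mixed cells (1.97%, 1.62 to 2.40), intervals that cover counting error only. They held 5.00%, 6.55% and 2.01% of all UMIs but 68.8%, 61.0% and 43.2% of the UMIs of the 5 basement membrane genes. The median germ layer endoderm-marker cell had 45.8 of these UMIs per 10000, against 0.778 in the other cells, at median depths of 14784.5 and 15365 UMIs. The corresponding medians were 29.6 and 0.878 in the mesendoderm experiment (depths 13797 and 11566.5) and 34.3 and 0.635 in the mixed experiment (19179.5 and 19105). Cells of 1 library are not replicates, so these contrasts are descriptions without a test.

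Gene by gene, Lama1 was at 575 CPM in the pooled germ layer endoderm-marker cells and 3.28 in the others, a ratio of 175. Col4a1 was at 1692 against 27.7 (ratio 61.0), Col4a2 at 812 against 17.7 (45.9), Lamc1 at 650 against 23.5 (27.7) and Lamb1 at 674 against 33.0 (20.4). Sparc was at 3271 against 234 (13.96), and the nidogens Nid1 and Nid2 had ratios of 12.01 and 4.43. Col27a1, a fibrillar collagen by family, had a ratio of 10.2, and Hspg2 one of 3.22. Fn1 went the other way, with 23.1 in endoderm-marker cells and 77.6 in the others, as did Col18a1 (21.4 and 111) and Lama5 (13.1 and 31.0). No UMI of Col1a1, a chain of the main fibrillar collagen, was found in the 232 endoderm-marker cells, whereas the others had 629. A count of 0 allows a Col1a1 UMI in up to 1.29% of endoderm-marker cells (3 counts), which sets no limit on the cells that express it, and at 3 counts the pooled level is at least 11.04-fold higher in the others. The basement membrane genes thus divided: Col4a1, Col4a2, the laminin-111 chains and the nidogens were higher in endoderm-marker cells, and Col18a1 and Lama5 were higher outside them. The further type IV chains were scarce, and did not go with Col4a1 and Col4a2: Col4a5 had 3 UMIs in endoderm-marker cells and 240 in the others, and Col4a6 had 0 and 192.

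**Figure D2:**
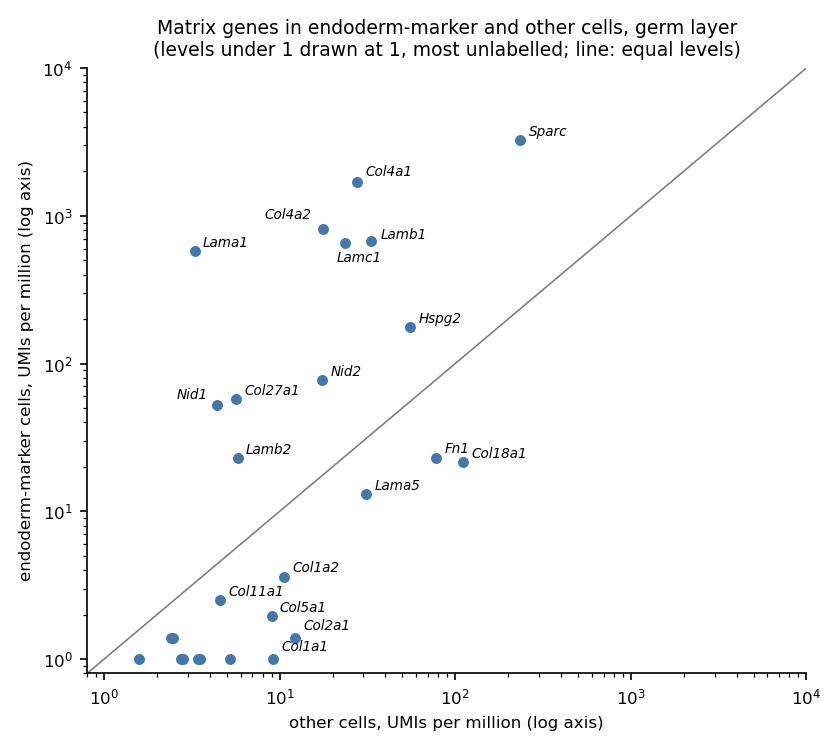
Level of members with at least 100 UMIs in the germ layer experiment, in CPM on log axes, in endoderm-marker cells (vertical) and in all other cells (horizontal); members under 1 are drawn at 1, and the line marks equal levels. Lama1, Col4a1, Col4a2, Lamc1, Lamb1 and Sparc lie far above the line, with ratios of 13.96 to 175, and Col18a1, Fn1 and Lama5 lie below it.

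The genes of this division were also compared at equal depth. With each germ layer cell thinned to 5000 UMIs, which left out 165 shallower cells, Col4a1 was detected in 98.7% of endoderm-marker cells and 10.8% of the others, and Lama1 in 88.2% and 1.21%. Fn1 was detected in 6.99% and 26.2%. The other laminin-111 chains went with Lama1, Lamb1 at 88.6% and 14.3% and Lamc1 at 89.96% and 10.6%, as did Nid1 at 25.8% and 1.97% and Nid2 at 33.2% and 9.35%. Col18a1 (5.68% and 40.5%) and Lama5 (7.42% and 13.8%) were detected in a larger share of the others. Without thinning, Col4a1 had a UMI in 99.6% and 29.5% of these cells, Lama1 in 97.4% and 3.89%, and Fn1 in 19.4% and 52.7%. Free RNA in the droplets gives UMIs in cells that do not make a gene, and its share in the low values of the other cells was not tested. In the mesendoderm experiment, thinned alike, Col4a1 was detected in 98.8% and 13.2% and Fn1 in 20.4% and 52.5%. In the mixed experiment the shares were 96.9% and 9.26% for Col4a1 and 15.6% and 37.0% for Fn1.

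Over the 32 germ layer populations, the levels of 6 of the 14 members compared had a Pearson's r of at least 0.862 with the share of endoderm-marker cells. That share ran from 0.909% to 22.9% with a median of 5.10%. Pearson's r with that share was 0.956 for Col4a1, 0.947 for Col4a2, 0.933 for Lamc1, 0.913 for Lama1, 0.881 for Lamb1 and 0.862 for Sparc, and Spearman's rho was 0.875, 0.814, 0.881, 0.827, 0.682 and 0.588. Nid2 had an r of 0.653 (rho 0.537) and Hspg2 one of 0.294 (rho 0.366). For the other 6, Col2a1, Lama5, Fn1, Col18a1, Col1a2 and Col1a1, r lay between −0.272 and −0.0125, and rho between −0.404 (Col1a1) and 0.257 (Lama5). The points share a library and the genes' own UMIs enter both the level and the cells' total, so these values are descriptions. The population with the highest share had RA, Tgfb, Bmp and Fgf minus and Wnt plus, with 16 endoderm-marker cells among 70. It had the highest Sparc (1096), Col4a1 (377), Col4a2 (190), Lama1 (119) and Nid2 (41.4) of all. The population with all 5 pathways minus came next, at 15.9%, and had the highest Lamb1 (173) and Lamc1 (162). The lowest share belonged to the population with RA and Fgf plus and Wnt, Tgfb and Bmp minus, which had the lowest Col4a1 (29.2), Lamb1 (30.3) and Lamc1 (26.0).

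Across populations, the 10 pairs among the 5 genes had a median r of 0.89 on the log2 scale (0.78 to 0.94, 32 germ layer populations), 0.59 in 300 mesendoderm wells and 0.61 in 142 mixed wells. With the endoderm-marker cells left out, the medians were 0.27, 0.25 (286 wells) and 0.21. The Col4a1 and Col4a2 pair, which shares its promoter region, went from 0.93 to 0.74, from 0.76 to 0.38 and from 0.89 to 0.69. Among the other cells this was the highest r of the 10 pairs in each experiment, except that in the mesendoderm wells another pair was higher at a pseudocount of 1 (0.271 against 0.26).

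The effect of RA on the basement membrane genes differed with the Bmp level in the germ layer experiment. Col4a1 ranged from 88.4 to 175 (median 125; mean 128 ± 30.1 SD, n = 8) in populations with both plus. It ranged from 29.2 to 140 (median 91.7; 91.4 ± 34.9) with RA plus and Bmp minus, and from 50.2 to 105 (median 73.2; 79.1 ± 17.9) with RA minus and Bmp plus. With both minus it ranged from 69.8 to 377 (median 152; 189 ± 109). The ranges overlapped, and the mean levels were highest where both pathways were minus and next where both were plus. The interaction, the log2 effect of RA with Bmp plus less that with Bmp minus, was 1.58 (SE 0.24, edgeR adjusted p = 0.000137). Of 23 members tested, 7 had a positive and 1 a negative interaction at an adjusted p under 0.05, against 3.19% of the 10614 genes tested, and the member median was 0.60 against −0.01 over all genes. The positive ones were the 5 genes above (Lama1 1.71, adjusted p = 0.0057, Col4a2 1.48, adjusted p = 5.69e-05, Lamc1 1.37, adjusted p = 0.000192, and Lamb1 1.12, adjusted p = 0.000139) with Nid2 (1.06, adjusted p = 0.00798) and Hspg2 (0.60, adjusted p = 0.00634). Col18a1 was the negative one (−0.40, adjusted p = 0.0171), while Sparc in the same edgeR fit (0.57, adjusted p = 0.0603) did not pass.

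The mean share of endoderm-marker cells was also highest with both minus, 9.95% (3.31% to 22.9%), and next with both plus, 6.15% (3.91% to 10.6%). It was 4.01% (1.19% to 6.25%) with RA minus and Bmp plus and 3.77% (0.909% to 5.97%) with RA plus and Bmp minus, and the ranges overlapped. A higher share is not a higher number of such cells. The RA minus populations held 108 endoderm-marker cells among 1741 cells and the RA plus populations 124 among 2609. Of the 11 endoderm markers tested, 7 were called with a positive RA with Bmp interaction and none with a negative one, 4 did not pass, and 3.19% of all genes were called. Summed without the endoderm-marker cells, Col4a1 means were 28.3, 24.4, 31.0 and 33.0 in the order both plus, RA plus, Bmp plus and both minus. The Col4a1 interaction was then 0.36 (adjusted p = 0.546), that of Col4a2 0.02, that of Lamb1 0.29 and that of Lamc1 0.40, and that of Lama1 turned to −0.12. Of the 8 members called, 1 remained a call, Nid2 (0.85, adjusted p = 0.0468), against 1.86% of all genes. With all cells, but without the 2 populations richest in endoderm-marker cells, the 5 members called, against 1.38% of all genes, were Col4a1 (1.36, adjusted p = 0.00208), Col4a2, Lama1, Lamb1 and Lamc1, while Nid2 (adjusted p = 0.0581), Hspg2 (adjusted p = 0.0676) and Col18a1 (adjusted p = 0.0667) did not pass.

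**Figure D3:**
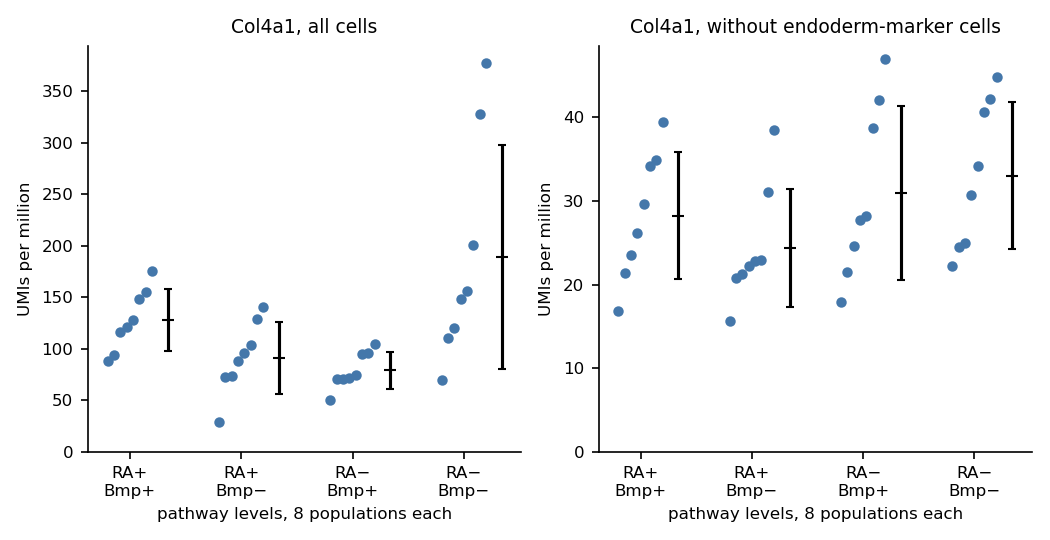
Col4a1 in CPM in the 4 combinations of RA and Bmp level of the germ layer experiment, 8 populations each, with all cells (left) and without endoderm-marker cells (right, on another scale); bars are means ± SD. The both-minus set has the highest mean with all cells, 189, and the right panel has means of 24.4 to 33.0.

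Tgfb and Bmp also interacted. Sparc had a median of 394 (349.7 to 459) with both plus, 313 (206 to 454) with Tgfb plus alone, 343 (292 to 507) with Bmp plus alone and 469 (211 to 1096) with both minus, sets that overlapped. Its interaction was 0.76 (adjusted p = 0.00916). Lama1 (1.36, adjusted p = 0.0308), Col2a1 (1.07, adjusted p = 0.0259), Col4a1 (0.88, adjusted p = 0.039) and Lamc1 (0.83, adjusted p = 0.0277) made up the 5 positive calls among 23 members, against 3.17% of all genes. The share of endoderm-marker cells had means of 6.09%, 5.00%, 4.07% and 8.72% in these 4 sets, and with both minus it ranged from 0.909% to 22.9%. Without the endoderm-marker cells, Col2a1 (1.14, adjusted p = 0.0114) was the 1 member called, against 4.02%, and Col4a1 (−0.43), Lamc1 (−0.26) and Lama1 (−0.02) had the opposite sign with no call. With all cells but without the single richest population, Col4a1 did not pass (0.76, adjusted p = 0.0661), with 2.97% of all genes called. Without the 2 richest, Col2a1 (1.10, adjusted p = 0.049) was the 1 member called, against 1.9% of all genes.

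RA and Wnt interacted on 2 members, both in the negative direction, against 3.9% of genes. They were Fn1 (−0.99, SE 0.14, adjusted p = 5.58e-05) and Col1a2, a fibrillar chain (−1.53, adjusted p = 0.00412). Scaled by library totals in place of the trimmed mean of M-values (TMM), 3 members were called, against 4.15% of genes, with Col18a1 (0.34, adjusted p = 0.0389) added in the positive direction. No member was called in the other 7 pairs by edgeR or by DESeq2, and DESeq2 tested as few as 8 members (Bmp with Fgf). At an unadjusted edgeR p under 0.05 there were 8 members for RA with Tgfb, 8 for RA with Fgf, 5 for Bmp with Fgf, 3 each for Wnt with Tgfb and Tgfb with Fgf, and 1 each for Wnt with Bmp and Wnt with Fgf, of 23. The shares of all genes called there were 4.05% for Wnt with Bmp, 0.396% for RA with Fgf, 0.17% for RA with Tgfb, 0.0754% for Bmp with Fgf, 0.0188% for Tgfb with Fgf, and 0.0% for Wnt with Tgfb and Wnt with Fgf.

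The single-pathway effects compare 16 plus with 16 minus populations of the germ layer experiment, with the other pathways balanced, and the plus and minus ranges overlapped for every member called. Under RA, 4 members rose and 4 fell, against 27.7% of all genes called, so the share of members called, 8 of 23, was near that of all genes. Col18a1 ranged from 101 to 140 (median 131) with RA plus and from 48.3 to 116 (median 83.4) with RA minus, so that the plus populations lay higher and the ranges met between 101 and 116. It rose by 0.65 on the log2 scale (SE 0.07, edgeR adjusted p = 1.26e-08). Col2a1, the cartilage and notochord collagen, ranged from 3.59 to 36.2 (median 13.02) with RA and from 1.03 to 22.8 (median 4.99) without, and rose by 1.20 (SE 0.20, adjusted p = 2.21e-05). Its partner in cartilage fibrils, Col11a1, rose by 1.02 (adjusted p = 0.000483), and Col1a2 by 0.60 (adjusted p = 0.0331). Without the 2 populations richest in endoderm-marker cells Col1a2 did not pass (adjusted p = 0.064).

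Fn1, Sparc and Col5a2 were among the members lower under RA. Fn1 ranged from 33.7 to 81.3 (median 48.5) with RA and from 38.9 to 301 (median 78.0) without, and fell by 0.86 (SE 0.14, adjusted p = 1.79e-05). Sparc ranged from 206 to 446 (median 328) with RA and from 288 to 1096 (median 423) without, and fell by 0.49 (SE 0.14, adjusted p = 0.00673). Col5a2, which helps to start collagen fibrils, fell by 0.53 (adjusted p = 0.011). The type IV and laminin-111 genes did not pass, at −0.17 for Col4a1 (adjusted p = 0.613), −0.29 for Col4a2, −0.19 for Lama1, −0.32 for Lamb1 and −0.14 for Lamc1. Without endoderm-marker cells, Sparc (−0.44) was again called, and Col4a2 (−0.41) was called as well, against 28.7% of all genes.

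Under Wnt, 2 members rose and 6 fell, against 23.9% of all genes, with a member median of −0.27. Fn1 ranged from 38.8 to 301 (median 81.0) with Wnt plus and from 33.7 to 89.6 (median 43.1) with Wnt minus, and rose by 0.90 (SE 0.14, adjusted p = 8.58e-06). Col27a1 ranged from 4.06 to 20.7 (median 12.6) against 0 to 12.1 (median 4.57), and rose by 1.10 (SE 0.22, adjusted p = 0.000203). Col2a1 had the opposite pattern, with 1.03 to 23.9 (median 5.22) in the plus and 3.27 to 36.2 (median 11.9) in the minus populations, and fell by 1.03 (SE 0.19, adjusted p = 0.000132). The fibrillar chains Col5a2 (−0.71, adjusted p = 0.000918) and Col1a1 (−0.71, adjusted p = 0.0328) fell with it. Of the basement membrane genes, Hspg2 (−0.48, adjusted p = 0.000516) and Col18a1 (−0.30, adjusted p = 0.00197) fell, and Col4a1 (−0.09, adjusted p = 0.816), Sparc (−0.27, adjusted p = 0.155) and the laminin-111 genes did not pass.

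Under Bmp, 6 members rose and 2 fell, against 43.1% of all genes, the pathway with the most genes called. Hspg2 ranged from 40.0 to 98.8 (median 72.7) with Bmp4 and from 26.2 to 86.6 (median 46.9) with Dorsomorphin, and rose by 0.57 (SE 0.10, adjusted p = 2.01e-05). Col26a1 rose by 1.33 (adjusted p = 0.000784), from a mean of 1.90 to 4.68, and Lama5 by 0.24 (adjusted p = 0.0219). Col1a1 ranged from 1.35 to 33.5 (median 9.54) against 0 to 18.6 (median 3.21), and rose by 1.00 (SE 0.25, adjusted p = 0.00155). Col5a1 rose by 0.51 (adjusted p = 0.00419). Col2a1 fell by 0.79 (adjusted p = 0.00118) and Lamb1 by 0.41 (adjusted p = 0.0357), from a mean of 83.0 to 57.7. The Lamb1 call was lost without the population richest in endoderm-marker cells (adjusted p = 0.062), and its change was 0.02 without those cells.

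Without endoderm-marker cells, 9 members rose and 1 fell under Bmp, against 44.5% of all genes. Sparc rose by 0.36 (adjusted p = 8.95e-06) and Col4a2 by 0.57 (adjusted p = 0.000487) in those sums, where with all cells their changes were −0.11 and −0.15 and did not pass. For these genes the sign of the fitted Bmp change differed with and without 5.33% of the cells. Since the changes with all cells were not called, no fall was shown there, and the sums were not compared by a test.

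Under Tgfb, 2 members were called and under Fgf 5. With pairwise products in the model the counts were 2 and 11, against 10.4% and 12.3% of genes, and without cells of at least 8 endoderm markers 1 and 9, against 7.41% and 8.29%. Under Tgfb, Fn1 rose by 0.57 (SE 0.14, adjusted p = 0.00814), with 36.5 to 301 (median 60.1) in the plus and 33.7 to 105 (median 49.7) in the minus populations. Nid1 fell by 0.61 (adjusted p = 0.0133), from a mean of 9.03 to 5.51, and these 2 calls compare with 7.02% of all genes. Under Fgf, 2 members rose and 3 fell, against 7.93% of genes. Col1a1 ranged from 2.31 to 33.5 (median 9.88) with Fgf2 and from 0 to 10.6 (median 3.46) with UO126, and rose by 1.34 (SE 0.26, adjusted p = 0.000919), and Col5a1 rose by 0.47 (adjusted p = 0.0384). Without the 2 populations richest in endoderm-marker cells, Col5a1 did not pass (adjusted p = 0.0628). Col2a1 (−0.80, adjusted p = 0.00731), Col11a1 (−0.70, adjusted p = 0.0313) and Col18a1 (−0.24, adjusted p = 0.0324) fell. The highest Col1a1 of all, 33.5, was in the population with every pathway plus except Wnt.

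**Figure D4:**
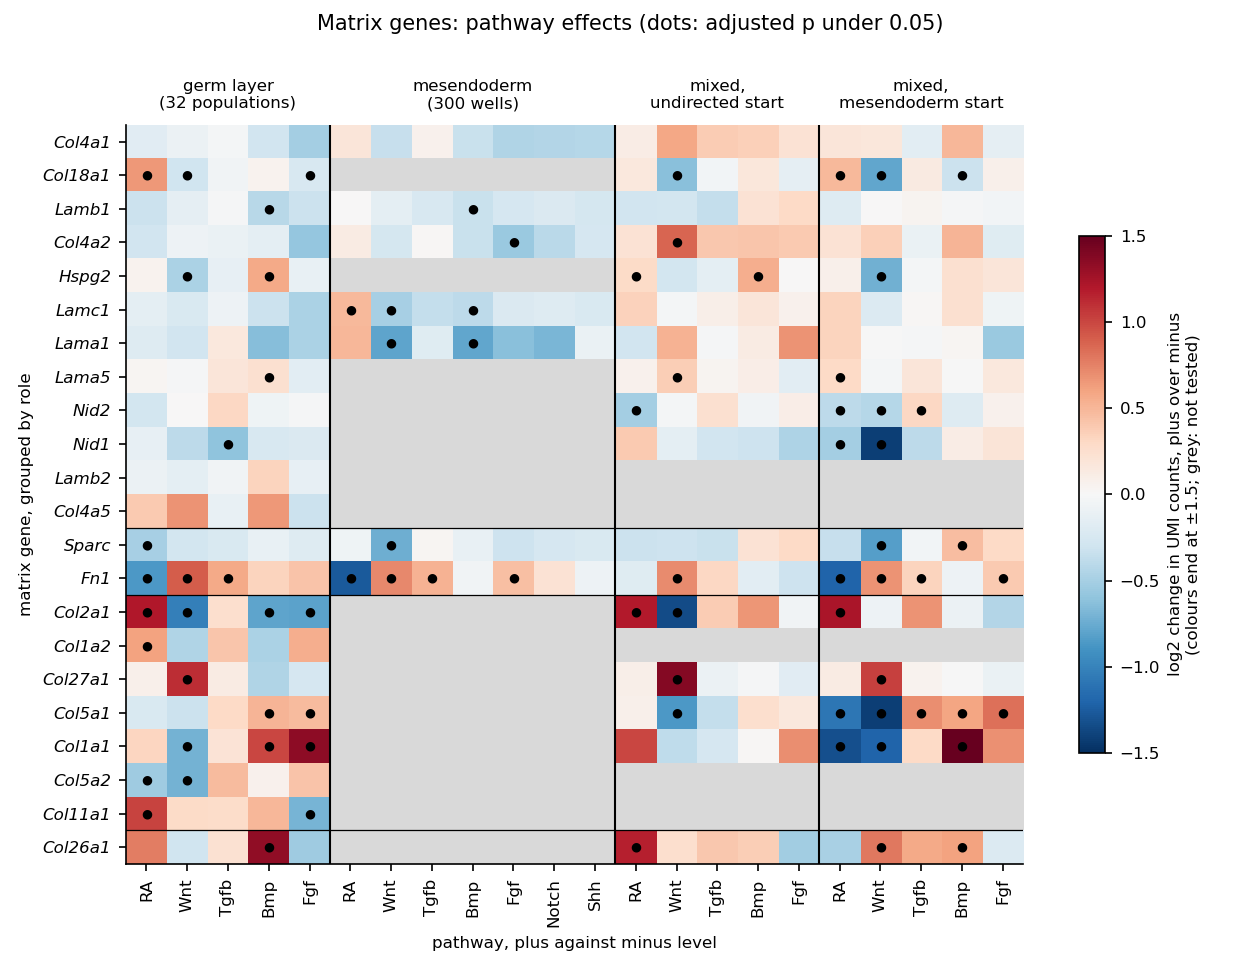
Log2 change of 22 of the 23 members tested (rows) in 22 comparisons (columns: the pathways in the germ layer experiment, the mesendoderm experiment and each start of the mixed experiment), with colours that end at −1.5 and 1.5, grey where a member was not tested and dots at an adjusted p under 0.05. Fn1 is negative for RA and positive for Wnt in each experiment, though its RA change from the undirected start, −0.18, has no dot. Col2a1 has the reverse signs where tested, though its Wnt change from the mesendoderm start has no dot.

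Fibronectin levels were read population by population. Of the 8 germ layer populations with RA minus and Wnt plus, Fn1 was at 301 where Tgfb, Bmp and Fgf were all plus, 257 with Tgfb and Fgf plus and 155 with Tgfb and Bmp plus. It was at 105 in 3 of these populations, those with Tgfb alone, Bmp alone or Fgf alone, at 92.0 with Bmp and Fgf plus, and at 59.0 with all 3 minus. The mean of these 8 was 147 ± 86.1 (SD), with a median of 105. The other sets had means of 53.7 (38.9 to 89.6) with both minus, 57.3 (38.8 to 81.3) with both plus and 43.6 (33.7 to 56.5) with RA plus and Wnt minus. The RA minus, Wnt plus set overlapped the others only through its lower values.

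In the mesendoderm wells, Fn1 changed with RA, Wnt and Tgfb in the same directions, and with Fgf as well. It ranged from 0 to 478 (median 147; 161 ± 94.7 SD, n = 146) with RA plus and from 0 to 1234 (median 338; 383 ± 225, n = 154) with RA minus, and fell by 1.26 on the log2 scale (SE 0.08, edgeR adjusted p = 8.62e-41). It rose under Wnt by 0.72 (adjusted p = 2.65e-17), under Tgfb by 0.52 (adjusted p = 3.96e-09, 108 plus and 192 minus wells) and under Fgf by 0.45 (adjusted p = 2.62e-06). By RA and Wnt together, well medians were 453 with RA minus and Wnt plus (n = 77), 234 with both minus (n = 77), 164 with both plus (n = 71) and 123 with RA plus and Wnt minus (n = 75), so the highest and the lowest set were those of the germ layer populations. Without endoderm-marker cells the RA and Wnt changes of Fn1 were −1.27 and 0.75, both called, as were 23.7% and 39.8% of genes.

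In the mixed experiment, the response of Fn1 to RA depended on the start. From the mesendoderm start it ranged from 39.9 to 140 (median 89.0; 91.5 ± 24.1 SD, n = 32) with RA and from 74.5 to 551 (median 182; 223 ± 125, n = 32) without, and fell by 1.20 (SE 0.10, adjusted p = 2.02e-22). From the undirected start its change was −0.18 and did not pass (adjusted p = 0.317). Fn1 was called lower under RA in the germ layer experiment, whose cells also had no mesendoderm induction. Its germ layer medians were 54.2 with RA and 105 without where Wnt was plus, and 41.8 and 44.8 where Wnt was minus. These experiments were not compared by a test. The difference between the starts, tested directly, was −1.02 (adjusted p = 2.5e-06). The Fgf effect also differed, by 0.70 (adjusted p = 0.00699), with a rise of 0.39 (adjusted p = 0.00189) from the mesendoderm start. The Wnt rise was 0.70 (adjusted p = 3.67e-06) from the undirected and 0.67 (adjusted p = 1.73e-09) from the mesendoderm start. Well medians by RA and Wnt from the mesendoderm start were 299 with RA minus and Wnt plus, 138 with both minus, 91.3 with both plus and 86.9 with RA plus and Wnt minus (n = 16 each). From the undirected start they were 108, 68.1, 78.1 and 72.3 (n = 16, 16, 14 and 16).

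**Figure D5:**
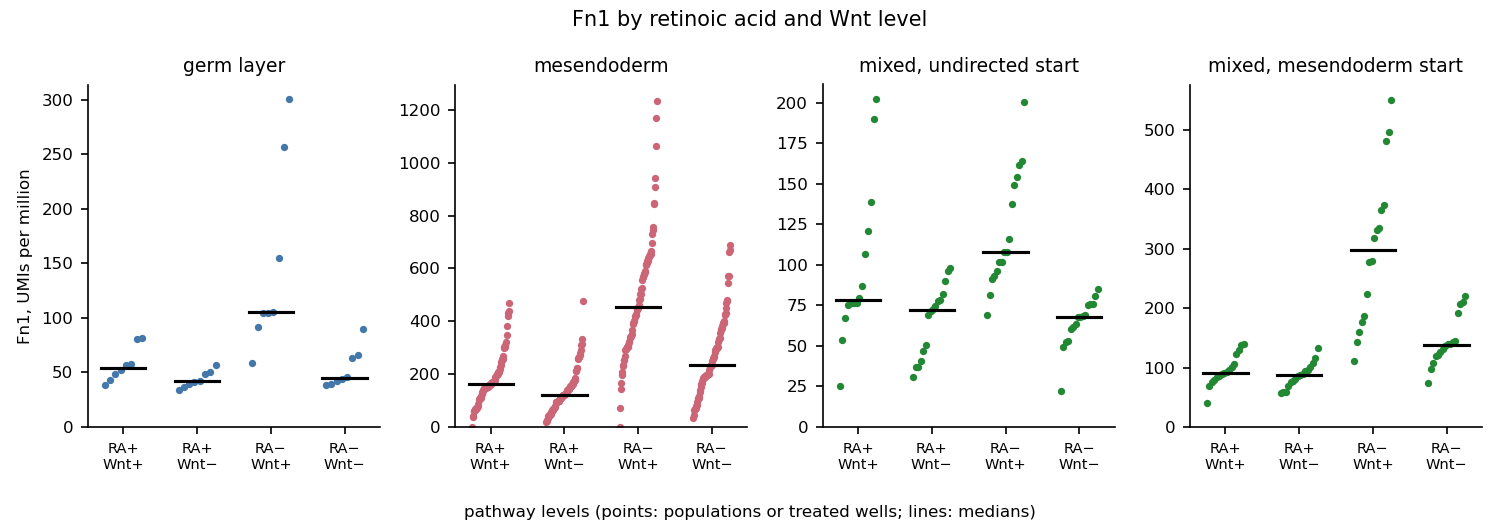
Fn1 in CPM by RA and Wnt level in the germ layer populations, the mesendoderm wells and the mixed wells of each start (the vertical scales differ); points are populations or wells and lines are medians. The RA minus, Wnt plus set has the highest median in all 4 panels, 105, 453, 108 and 299.

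In the mesendoderm wells 7 members were tested, and Fn1 had the largest change of these under RA and Tgfb, while Lama1 had the largest under Wnt and Bmp. Sparc ranged from 0 to 1395 (median 107, n = 148) with Wnt plus and from 22.0 to 1831 (median 220, n = 152) with Wnt minus, and fell by 0.73 (adjusted p = 7.5e-07). Lama1 (−0.79, adjusted p = 0.00194) and Lamc1 (−0.50, adjusted p = 0.00286) fell under Wnt as well, giving 1 rise and 3 falls among 7 members against 39.6% of 2328 genes. Under Bmp, Lama1 (−0.78, adjusted p = 0.00284), Lamc1 (−0.39, adjusted p = 0.0285) and Lamb1 (−0.34, adjusted p = 0.0207) fell and none rose, against 29.3% of genes. RA gave 1 rise, Lamc1 (0.49, adjusted p = 0.00748), beside the fall of Fn1, against 21.9%, and Fgf a rise of Fn1 and a fall of Col4a2 (−0.56, adjusted p = 0.0177), against 9.28%. Tgfb moved 1 member, Fn1, against 10.1%. No member was called under Notch, with 1.16% of genes, or Shh, with 0.043%, by edgeR or by DESeq2, and 4 and 2 members had an unadjusted edgeR p under 0.05. Col4a1 was called under none of the 7 pathways. With at least 10 cells per well, no member was called under Bmp or Fgf, where 7.76% and 0.509% of genes were, and 3 and 1 of 9 members had an unadjusted p under 0.05.

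With the endoderm-marker cells left out of the sums of all wells, 2 members, Fn1 and Sparc, had enough counts to be tested. The Sparc fall under Wnt was then −0.93, and under Bmp Sparc rose by 0.29 (adjusted p = 0.0116, against 33.2% of genes). The sign under Bmp was opposite to that with all cells, where Sparc was not called. Of the 300 mesendoderm wells, 197 held no endoderm-marker cell, and the highest share was 3 of 6 cells. With wells of a treatment summed into 128 populations, 11 members were tested. RA then gave 3 rises and 1 fall (16.4% of genes), Wnt 1 and 6 (33.0%), Tgfb 1 and 0 (7.38%), Bmp 0 and 3 (21.1%) and Fgf 1 and 2 (5.22%). Not all members called were those called above. Under Bmp, Nid2 (−0.31, adjusted p = 0.0204) was called beside Lama1 and Lamc1, and Lamb1 was not (−0.28, adjusted p = 0.0797). Col18a1, untested in the wells, rose under RA (0.88, adjusted p = 1.21e-13) and fell under Wnt (−0.59, adjusted p = 1.29e-07), the directions of the germ layer experiment. Notch and Shh gave none, against 0.693% and 0.0433%, with 7 and 2 members at an unadjusted p under 0.05.

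In the mixed experiment, Col1a1 and Col5a1 fell under RA from the mesendoderm start. There 3 members rose and 5 fell under RA, against 30.0% of 8791 genes. Col1a1 ranged from 0 to 19.3 (median 1.91) with RA and from 0 to 37.4 (median 8.404) without, and fell by 1.31 (SE 0.25, adjusted p = 6.86e-06). Col5a1 ranged from 0 to 15.1 (median 4.18) against 0 to 37.0 (median 10.2), and fell by 1.09 (SE 0.17, adjusted p = 4.13e-08). Nid1 (−0.51, adjusted p = 0.00732) and Nid2 (−0.40, adjusted p = 0.00102) fell beside Fn1, and Col2a1 (1.22, adjusted p = 1.49e-05), Col18a1 (0.49, adjusted p = 1.04e-08) and Lama5 (0.30, adjusted p = 0.0143) rose. Lamc1 (0.34, adjusted p = 0.0508) and Sparc (−0.35, adjusted p = 0.0552) did not pass.

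From the undirected start, RA gave 3 rises and 1 fall, against 34.3% of genes. Col2a1 (1.19, adjusted p = 0.000335), Col26a1 (1.17, adjusted p = 0.00526) and Hspg2 (0.29, adjusted p = 0.0428) rose and Nid2 fell (−0.51, adjusted p = 0.000668). The RA effect differed between the starts for 5 members, all more negative from the mesendoderm start, against 5.68% of genes. They were Fn1, Col1a1 (−2.32, adjusted p = 0.0122), Col26a1 (−1.65, adjusted p = 0.00439), Col5a1 (−1.17, adjusted p = 0.0342) and Nid1 (−0.90, adjusted p = 0.03). Col1a1 was scarce from the undirected start, with a median of 0 over treated wells, so its difference rests on few counts there.

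Leaving out endoderm-marker cells brought further members into the RA response of the mesendoderm start, 4 rises and 10 falls against 30.6% of genes. Col4a1 (−0.73, adjusted p = 4.8e-05), Col4a2 (−0.54, adjusted p = 0.0156), Sparc (−0.65) and Lamb1 (−0.31) were lower with RA in these sums. With all cells, Col4a1 and Col4a2 did not pass and had the opposite sign. The RA effect on Col4a1 differed between the starts by −1.06 (adjusted p = 0.00824) without endoderm-marker cells, where 1 member was then more positive and 6 more negative from the mesendoderm start (6.57% of genes).

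Wnt moved the most members in the mixed experiment, 3 rises and 7 falls from the mesendoderm start against 41.1% of genes. Col18a1 ranged from 18.6 to 94.6 (median 56.2) with Wnt plus and from 57.6 to 152 (median 91.0) with Wnt minus, and fell by 0.78 (SE 0.07, adjusted p = 1.02e-18). Hspg2 ranged from 21.5 to 60.7 (median 38.6) against 32.9 to 95.6 (median 63.4), and fell by 0.72 (SE 0.09, adjusted p = 1.68e-12). Nid1 ranged from 0 to 15.9 (median 5.24) against 0 to 37.4 (median 13.6), and fell by 1.41 (SE 0.16, adjusted p = 1.53e-13). The low values lay with Wnt plus for each of the 3, and the ranges overlapped. Col5a1 (−1.41, adjusted p = 3.81e-12), Col1a1 (−1.20, adjusted p = 2.46e-05), Sparc (−0.82, adjusted p = 5.34e-07) and Nid2 (−0.42, adjusted p = 0.000297) fell as well. Fn1, Col27a1 (1.03, adjusted p = 6.82e-08) and Col26a1 (0.79, adjusted p = 0.000818) rose. Without endoderm-marker cells, Col4a1 (0.54) and Col4a2 (0.58) were also called higher, against 41.5% of genes.

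From the undirected start, Wnt gave 4 rises and 3 falls, against 36.1% of genes. Col27a1 (1.38, adjusted p = 2.91e-07), Fn1, Lama5 (0.37, adjusted p = 0.0119) and Col4a2 (0.87, adjusted p = 0.034) rose, and Col18a1 (−0.62, adjusted p = 4.56e-10), Col2a1 (−1.35, adjusted p = 0.00035) and Col5a1 (−0.86, adjusted p = 0.0433) fell. This split depended on the scaling. With library totals in place of TMM, the median of all genes lay lower by 0.14 on the log2 scale in both starts, and the split became 2 rises and 6 falls, against 44.7% of genes. Lama5 (0.23, adjusted p = 0.12) and Col4a2 (0.73, adjusted p = 0.073) then did not pass, and Sparc (−0.47, adjusted p = 0.0233), Hspg2 (−0.43, adjusted p = 0.00156) and Lamb1 (−0.42, adjusted p = 0.04) were called lower. The Wnt effect differed between starts for Nid1 (−1.26, adjusted p = 0.00207), lower from the mesendoderm start, and for Col2a1 (1.26, adjusted p = 0.035), against 7.77% of genes.

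Bmp raised Col1a1 from the mesendoderm start, from 0 to 15.4 (median 2.22) with Bmp minus to 0 to 37.4 (median 10.1) with Bmp plus, a rise of 1.53 (SE 0.25, adjusted p = 8.19e-07). Col5a1 (0.59, adjusted p = 0.00864), Sparc (0.47, adjusted p = 0.0169) and Col26a1 (0.60, adjusted p = 0.0378) rose with it and Col18a1 (−0.32, adjusted p = 0.000647) fell, 5 members against 10.7% of genes. From the undirected start, Hspg2 (0.55, adjusted p = 0.000315) was the 1 member called, against 7.81%. Between the starts the Bmp effect differed for Col18a1 (−0.49, adjusted p = 0.0206), against 0.193% of genes. Tgfb gave 3 rises from the mesendoderm start, Col5a1 (0.69, adjusted p = 0.00231), Fn1 (0.34, adjusted p = 0.013) and Nid2 (0.31, adjusted p = 0.0397), against 6.96%. Fgf gave 2, Fn1 and Col5a1 (0.83, adjusted p = 0.000197), against 13.6%. No member was called from the undirected start under Tgfb, with 4.14% of genes, or Fgf, with 13.3%, by edgeR or DESeq2, and 3 and 2 of 17 members had an unadjusted edgeR p under 0.05. The Tgfb effect differed between starts for no member and no gene by edgeR (0.0%), for no member by DESeq2, and for 1 member at an unadjusted p. The Fgf difference had 1 member, Fn1, against 1.47% of genes.

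Several of the 17 members tested differed in level between the starts, at shares not far from those of all genes. In the control wells, which received no combination, Fn1 ranged from 86.8 to 185 (median 121; 125 ± 27.9 SD, n = 8) after mesendoderm induction and from 40.0 to 104 (median 59.2; 68.3 ± 21.9, n = 8) without it, and was higher by 0.91 (SE 0.20, adjusted p = 0.000619). Col5a1 was higher by 1.35 (adjusted p = 0.032), and these 2 calls compare with 8.57% of genes. In the treated wells (64 and 62), 5 members were higher and 1 lower from the mesendoderm start, against 25.6% of genes. Col1a1 ranged from 0 to 37.4 (median 4.61) against 0 to 25.4 (median 0), and was higher by 1.78 (SE 0.32, adjusted p = 3.3e-06). Col5a1 (1.14, adjusted p = 1.1e-06), Col26a1 (0.85, adjusted p = 0.000567), Fn1 (0.72, adjusted p = 5.05e-13) and Hspg2 (0.20, adjusted p = 0.0357) were higher and Col18a1 (−0.37, adjusted p = 9.68e-08) lower. With library totals the split was 4 and 2, against 27.0% of genes, as Hspg2 did not pass (0.17, adjusted p = 0.0811) and Lama5 was called lower (−0.23, adjusted p = 0.0181). Without endoderm-marker cells it was 8 and 2, against 26.9%, with Sparc (0.36), Col4a1 (0.46) and Col4a2 (0.46) added.

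Against the control wells of their own start, treated wells differed in 1 member each. Lama5 ranged from 4.39 to 65.4 (median 29.1) in treated and from 13.4 to 19.9 (median 16.1) in control wells of the undirected start, and was higher by 0.84 (SE 0.18, adjusted p = 0.000116), against 19.3% of genes. Col18a1 ranged from 18.6 to 152 (median 76.9) in treated and from 75.3 to 121 (median 91.4) in control wells of the mesendoderm start, and was lower by 0.40 (SE 0.09, adjusted p = 0.000852), against 15.5% of genes.

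Receptors and enzymes that serve these proteins were read from lists of the pathway's other genes. Of 9 integrins, dystroglycan and related receptors tested in the germ layer experiment, of 22 listed, 8 rose and none fell under Bmp, where 43.1% of all genes were called, with a median of 0.54 against 0.00 over all genes. The list includes Dag1, the laminin receptor dystroglycan (0.65, adjusted p = 2.37e-09), Bcam, a receptor for Lama5 (0.54, adjusted p = 3.74e-08), and Itgb5 (0.67, adjusted p = 4.44e-06). Under Wnt, none rose and 5 fell, against 23.9% of genes, with a median of −0.24, among them Itga3 (−0.87, adjusted p = 3.86e-06) and Itgb1, the common beta chain (−0.24, adjusted p = 0.000178). Itga6, a laminin-binding alpha chain, rose under Fgf (0.52, adjusted p = 0.00114), 1 of 3 rises and no fall, against 7.93% of genes. In the mixed experiment, 7 of 9 fell and none rose under Wnt from both starts, against 36.1% (undirected) and 41.1% of genes, with medians of −0.63 (undirected) and −0.50, and Itga3 fell by 1.47 and 1.55.

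Of 19 genes of collagen folding and crosslinking tested, of 31 listed, 3 rose and 7 fell under Bmp, a median of −0.16 and a share of calls near the 43.1% of all genes. P4hb, the beta subunit of prolyl 4-hydroxylase, rose (0.29, adjusted p = 3.38e-07), and the prolyl 3-hydroxylases P3h1 (−0.51, adjusted p = 0.000245) and P3h2 (−0.91, adjusted p = 0.000399) fell. RA gave 1 rise and 4 falls, near the 27.7% of all genes, with Pcolce, an enhancer of procollagen cleavage, lower by 0.80 (adjusted p = 2.01e-07). Of 27 other matrix glycoproteins and proteoglycans tested, of 44 listed, 9 rose and 8 fell under RA, a median of 0.08, and 8 rose and 7 fell under Bmp, a median of 0.07, against the same 27.7% and 43.1% of all genes. Under RA the fibrillin Fbn2 rose by 1.47 (adjusted p = 1.55e-06) and Efemp1 fell by 0.95 (adjusted p = 3.13e-05). Under Bmp Hapln1, a link protein of hyaluronan matrix, rose by 2.72 (adjusted p = 1.35e-10), Npnt, a basement membrane integrin ligand, by 1.69 (adjusted p = 2.01e-09) and Agrn, a basement membrane proteoglycan, by 0.75 (adjusted p = 1.47e-09). Of 15 matrix proteases and inhibitors tested, of 21 listed, 2 rose and 4 fell under Bmp, a share near the 43.1% of all genes, with Mmp11 higher by 1.22 (adjusted p = 4.29e-07) and Mmp2, a gelatinase that cleaves type IV collagen, lower by 0.66 (adjusted p = 0.000537). Under Wnt 4 fell, among them Adamts9 (−1.15, adjusted p = 9.18e-05), and none rose, near the 23.9% of all genes.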

How the data were processed

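Single-cell RNA was measured in 3 droplet experiments. The deposited tables hold UMI counts per gene and cell, and a table of the authors gives each cell's well and quality flag. Per the submitters' processing notes, HTSeq 0.9.1, STAR 2.5.2b and Cell Ranger 1.3.1 were among the tools. The use of strand in counting is not stated there, so reads from stretches where genes overlap may be shared. For Col4a1 and Col4a2 the annotated overlap is limited to 22 bases at their starts. The bulk libraries were not used. Counts of passing cells were summed per population (at least 5 cells). They were tested with edgeR 4.0.16 quasi-likelihood fits in R 4.3.3, with TMM scaling and the filterByExpr filter, and Benjamini-Hochberg adjusted p under 0.05 over all genes tested. Pathways were coded as plus less minus, and germ layer interactions were fitted with all 10 pairs in the model. The germ layer spread comes from the residuals of 32 conditions with 1 population each. On simulated counts the test recovered 99.0% (germ layer RA, 10614 genes), 100.0% (mesendoderm RA, 2328 genes) and 99.5% (mixed RA, mesendoderm start, 8791 genes) of 200 genes changed 2-fold. Of the unchanged genes, 10, 6 and 15 were called. The counts were drawn with the spreads that edgeR fitted and the same model. The recovery therefore does not cover smaller changes or genes carried by few cells. Correlations used log2(level + 5). Named in each comparison are up to 6 called members each way with the smallest adjusted p, and of Col4a1, Col4a2, Lama1, Lamb1, Lamc1, Fn1 and Sparc those that did not pass; the levels are of the 12 members with the highest mean, and pathway lists give up to 3 genes each way. The counts of members include 1 whose values are not reported here. The members and lists were chosen with earlier results of these data known. Alternatives were DESeq2 1.42.0, library totals, no filter, other cell minimums, a block and sums without endoderm-marker cells.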

Additional observations from a re-analysis of the deposited data

Results flagged for a closer look

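The effect of a pathway differed between the 2 starts of the mixed experiment, by a test of the difference itself (edgeR, adjusted p under 0.05), for 9 pairs of member and pathway. The RA effect was more negative from the mesendoderm start for Col1a1 (−2.32, adjusted p = 0.0122), Col26a1 (−1.65, adjusted p = 0.00439), Col5a1 (−1.17, adjusted p = 0.0342), Fn1 (−1.02, adjusted p = 2.5e-06) and Nid1 (−0.90, adjusted p = 0.03). The Wnt effect was more negative for Nid1 (−1.26, adjusted p = 0.00207) and more positive for Col2a1 (1.26, adjusted p = 0.035). The Bmp effect was more negative for Col18a1 (−0.49, adjusted p = 0.0206), and the Fgf effect more positive for Fn1 (0.70, adjusted p = 0.00699).

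Of 66 groups of 8 wells or populations, 4 had 1 value far from the others, where chance gives about 1 in 20. They were Col26a1 in an undirected control well (11.1 CPM), Fn1 (185) and Nid1 (22.0) in control wells of the mesendoderm start, and Col18a1 in a germ layer population with RA plus and Bmp minus (116, the lowest of its 8).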

How the results depend on the processing

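Limits first. Each experiment is 1 library, and each germ layer condition is 1 population with no second culture behind it. In the mesendoderm experiment 278 wells belonged to 103 treatments with more than 1 well. In the mixed experiment 126 treated wells belonged to 63 combinations of start and treatment with more than 1 well. These wells share the library of their experiment. Shallow wells kept most members out of the mesendoderm tests. Scaling by library totals kept all 41 counts and summaries within 1.5 times and reversed no member. With DESeq2, 39 of 41 stayed. Members called were 1 of 10 tested for RA with Wnt (4.45% of genes) and 2 of 17 for Tgfb with Bmp (2.07%). The edgeR fit tested 23 members in both, so these counts are not over the same members. With at least 10 cells per well, 24 of 26 stayed, and the Bmp and Fgf counts of the mesendoderm experiment were 0 and 0; the cause was not tested.

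Without the filter on low counts more members could be tested. The counts called were then 13 for germ layer Bmp (24% of all genes) and 5, 8, 2 and 14 for mesendoderm Bmp, RA, Tgfb and Wnt (7.6%, 7.27%, 2.8% and 13.9%), of 59 and 58 members. In the mixed experiment they were 9 (Bmp), 7 (Fgf), 15 (RA), 8 (Tgfb) and 22 (Wnt) from the mesendoderm start (5.95%, 6.83%, 15.1%, 4.16% and 21.7%), and 4 (Bmp), 4 (Fgf), 10 (RA) and 4 (Tgfb) from the undirected start (3.69%, 5.32%, 16.1% and 2.66%). The differences between starts were 4 (Fgf), 8 (RA), 1 (Tgfb) and 6 (Wnt) (1.35%, 2.92%, 0.202% and 4.38%), the start contrasts 8 (control, 4.5%) and 13 (treated, 14%), and treated less control wells 3 (mesendoderm start, 7.68%) and 4 (undirected start, 9.07%).

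With pairwise products in the model, germ layer Bmp had 15 members called and Fgf 11, against 46.5% and 12.3% of genes. Wells of a treatment summed gave 4 for mesendoderm RA and 7 for Wnt. Unthinned, Col4a1 was detected in 33.3%, 33.2% and 27.5% of germ layer, mesendoderm and mixed cells and Fn1 in 50.9%, 69.1% and 69.9%; thinned to 3000 UMIs, in 11.1%, 14.4% and 7.91%, and 16.9%, 38.0% and 26.2%. Pseudocounts of 1 and 20 moved no median correlation past its spread. At 1, Col4a1 with Col4a2 was not the highest pair in the mesendoderm wells summed without endoderm-marker cells.

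The well sets of the mesendoderm experiment share a number, and those of the mixed experiment share a marking short RNA. Deviations of wells of the same set had median correlations of −0.0005 and 0.034, which cannot show whether a set shares more. With the replicate block, 25 of 26 counts stayed, and the start difference in control wells had 4 members called (7.84% of genes). The start difference in treated wells then had 6 members called and 17.7% of genes, against 25.6% of genes without the block. No paired analysis was possible by replicate number for the germ layer experiment because each condition is 1 population; populations alike in the other 4 pathways are matched by those pathways' terms in the fit.

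Sums without cells of at least 6 endoderm markers (chosen after seeing the data, as were 4 and 8, and the removal of populations) moved these counts: germ layer interactions RA with Bmp 1, RA with Fgf 1, RA with Tgfb 1, Tgfb with Bmp 1 and Wnt with Bmp 2; mesendoderm Bmp 1, Fgf 1, RA 1 and Wnt 2; mixed Fgf difference 2, Fgf from the mesendoderm start 4, RA from that start 14, Tgfb from the undirected start 1, treated start difference 10, and treated less control wells 3 and 3. Members tested were then 22 (germ layer), 2 (mesendoderm) and 16 (mixed), against 23, 7 and 17 with all cells. With 4 markers they were 21, 2 and 15, and with 8 markers 22, 4 and 16. The mesendoderm counts therefore also reflect members no longer tested. The share of all genes called differed from that with all cells by at most 3.94 percentage points in any comparison (3.73 with 4 markers, 2.35 with 8). Median correlations were 0.265, 0.250 and 0.209. A sign is listed as turned, here and for the other limits, where it differed and either fit gave a call. The sums were not compared by a test. Signs turned for Col4a1 (Tgfb with Bmp −0.43, mixed RA difference −1.06, RA from the mesendoderm start −0.73), Col4a2 (germ layer Bmp 0.57, RA from the mesendoderm start −0.54), Lama1 (RA with Bmp −0.12, Tgfb with Bmp −0.016), Lamb1 (germ layer Bmp 0.019, Wnt with Bmp −0.52), Lamc1 (Tgfb with Bmp −0.26) and Sparc (germ layer Bmp 0.36, mesendoderm Bmp 0.29, mixed Fgf difference 0.55, treated less control wells of the undirected start −0.37).

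With 4 markers the counts were germ layer Tgfb 4, mesendoderm Bmp 1 and Wnt 2, mixed Bmp, Fgf and Tgfb from the undirected start 2, 1 and 1, Fgf difference 4, Fgf from the mesendoderm start 5, RA difference 8, and treated less control wells 4 (mesendoderm start) and 3. Signs turned for Col4a1 (mixed Fgf difference 1.16, Fgf from the mesendoderm start 0.48, Fgf from the undirected start −0.68, RA difference −1.03, RA from the mesendoderm start −0.85, Wnt difference 0.73), Col4a2 (germ layer Bmp 0.73, Fgf difference 1.20, Fgf from the mesendoderm start 0.56, RA from that start −0.70), Lamb1 (germ layer Bmp 0.050), Lamc1 (germ layer Bmp 0.26) and Sparc (germ layer Bmp 0.39, mesendoderm Bmp 0.31, mesendoderm Fgf 0.26, mixed Fgf difference 0.59, treated less control wells of the undirected start −0.40). With 8 markers they were germ layer Fgf 9 and Tgfb 1, mesendoderm Bmp 0, Fgf 1, RA 1 and Wnt 2, mixed Bmp from the mesendoderm start 9, Tgfb from the undirected start 1, Wnt difference 4 and treated less control wells 2 and 2, and Sparc turned to 0.23 under germ layer Bmp.

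Without the population richest in endoderm-marker cells, RA with Fgf had 1 member called (Lamb1); without the 2 richest, RA with Bmp had 5, RA with Fgf 1 and Tgfb with Bmp 1.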
